A study of Mus musculus with 41 samples.

Results

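Calcineurin and protein phosphatase 1 are the phosphatases best known for limiting memory, and 9 of their genes were followed here in the hippocampus of mice ranked by learning and memory. The members were chosen by name, as every probe set whose platform symbol was Ppp3ca, Ppp3cb, Ppp3r1, Ppp1ca, Ppp1cb, Ppp1cc, Ppp1r1a, Rcan1 or Rcan2. They are 9 of the 18193 genes that the platform names by a single symbol. They had 22 of the 45037 probe sets of the array, and 21 of them lay among the 22519 probe sets bright enough to test. The exception was Ppp3cb 1446149_at, whose level lay between 4.47 and 5.22 in the medium group, which held its highest value. A further probe set, 1450368_a_at, is annotated to both Wdr92 and Ppp3r1 and was kept apart from the members.

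The animals were C57BL/6J males, an inbred strain, with no genetic or drug manipulation in the labels, and the hippocampus of each was measured on 1 Affymetrix array. They entered the behavioural tests when 10 weeks old and left them in week 38, and RNA was taken 1 month later. Mice were placed by 2 ranking systems, built on 11 parameters of 5 learning and memory tests, into a low group of 8, a medium group of 12 and a high group of 5 when both systems gave the same class. The inconsistent group holds the 14 mice titled as inconsistent, meaning that the systems differed on them. The labels contradict each other for inconsistent 2, whose longer description gives both systems as placing it in the medium class. It was kept in the group of its title, and when it was moved to the medium group the counts of members passing each test were as given here. The 2 mice with incomplete behavioural data are given as values only. All groups went through the same behavioural battery, so every sample comes from a trained mouse. Within a group, mice are numbered as in the labels, for example high 2.

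As background, calcineurin is a calcium-dependent serine and threonine phosphatase made of a catalytic A subunit and a calcium-binding B subunit, and it is switched on by calmodulin when calcium enters the postsynaptic neuron. It dephosphorylates inhibitor 1, the product of Ppp1r1a, which releases protein phosphatase 1 to reverse phosphorylation by kinases such as CaMKII, a route tied to long-term depression. Rcan1 and Rcan2 bind calcineurin and regulate it. Calcineurin also dephosphorylates NFAT transcription factors, which bind a GGAAA core.

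Promoter sequences were looked up because Rcan1 and Rcan2 moved together across mice and because Ppp3r1 gave the smallest p-values among the members. The RefSeq table, on build GRCm38.p6, held 9 promoters for 6 of the 9 genes. The 250 bases before the transcription start are shown for 4 of these promoters, 5′ to 3′ on the gene's strand, with each NFAT core (GGAAA or its reverse complement TTTCC) and each cyclic AMP response element (TGACGTCA) in capitals. The first Rcan1 promoter lies at chr16:92466170-92466419 on the minus strand, and the internal one, known as the NFAT-responsive start of the short Rcan1 transcript, at chr16:92400079-92400328. The Rcan2 promoter shown lies at chr17:43801102-43801351 and the Ppp3r1 promoter at chr11:17159048-17159297, both on the plus strand.
Rcan1 upstream promoter: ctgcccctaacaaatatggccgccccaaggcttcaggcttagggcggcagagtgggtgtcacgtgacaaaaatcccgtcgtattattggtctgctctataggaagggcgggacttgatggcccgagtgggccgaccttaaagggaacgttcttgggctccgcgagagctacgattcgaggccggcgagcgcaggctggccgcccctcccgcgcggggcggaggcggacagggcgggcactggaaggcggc
Rcan1 internal promoter: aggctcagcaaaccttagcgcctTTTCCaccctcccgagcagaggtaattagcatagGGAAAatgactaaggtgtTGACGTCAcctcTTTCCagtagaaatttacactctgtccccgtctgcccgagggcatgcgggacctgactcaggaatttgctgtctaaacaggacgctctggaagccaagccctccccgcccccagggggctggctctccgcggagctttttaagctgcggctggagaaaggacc
Rcan2 promoter: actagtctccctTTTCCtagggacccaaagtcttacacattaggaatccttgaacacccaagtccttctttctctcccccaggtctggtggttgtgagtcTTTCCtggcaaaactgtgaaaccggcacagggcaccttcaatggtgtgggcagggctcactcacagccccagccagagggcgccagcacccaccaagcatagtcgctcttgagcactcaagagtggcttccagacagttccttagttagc
Ppp3r1 promoter: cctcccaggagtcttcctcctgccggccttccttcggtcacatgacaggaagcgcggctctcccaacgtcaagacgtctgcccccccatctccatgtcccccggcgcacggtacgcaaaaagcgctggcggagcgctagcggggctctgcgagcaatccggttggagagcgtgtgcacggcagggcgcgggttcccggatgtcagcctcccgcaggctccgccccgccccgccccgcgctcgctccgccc
The internal Rcan1 window held 3 NFAT cores and 1 cyclic AMP response element, whereas the upstream Rcan1 window held 0 of either. The Rcan2 window shown held 2 NFAT cores, and its other windows held 0. The Ppp3r1 window held 0 NFAT cores and 4 GC boxes (GGGCGG, either strand). Among the other members in the table, Ppp3cb had 3 NFAT cores, Ppp1cc had 1 and Ppp1cb had 0. Of 32851 promoter windows of the same length, 55.6% held at least 1 NFAT core, 6.39% held 3 or more, and 1.55% held the cyclic AMP response element. A match describes letters only, and the files do not say from which start the transcripts measured by the 2 Rcan1 probe sets come.

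Before the comparisons, 3 arrays stood apart in the members. On the array labelled medium 9, the mean of 8 markers of hippocampal excitatory neurons was 7.74 on the log2(normalized intensity + 16) scale used throughout, against 8.85 to 9.48 on all other arrays. On the same array 6 neocortical markers averaged 9.57, with no other array above 8.59, and 7 striatal markers averaged 9.06, with no other array above 8.28. This array thus goes against its hippocampal label, while hippocampal markers were bright on the other arrays. Low 5 had the lowest median intensity of all arrays as deposited, 22.4, and fell outside the range of the other low arrays in 13 of the 21 member probe sets. High 2 fell outside the range of the other high arrays in 12 of 21, and medium 9 outside the other medium arrays in 10 of 21. Being outermost is more common in the smaller groups.

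On medium 9 the catalytic calcineurin gene Ppp3ca was the lowest of all 41 arrays at its probe sets 1426401_at (12.42), 1438478_a_at (11.62) and 1452056_s_at (11.23). Ppp1cc, the gamma catalytic subunit of protein phosphatase 1, was the lowest of all arrays at 1452046_a_at (9.48, others 9.70 to 10.15). Rcan2 1421425_a_at went the other way, at 11.55 against 10.45 to 10.81 on every other array. Rcan1 1416600_a_at was the highest of all arrays at 9.19. The dimmer probe sets of these genes were not raised. Rcan2 1450243_a_at was at 8.04, inside the range of the other medium arrays (7.68 to 8.43). Rcan1 1416601_a_at was at 7.34, below the other medium arrays (7.37 to 7.97). The 2-gene probe set of Wdr92 and Ppp3r1 was at 7.71, with the other arrays between 9.17 and 9.77. On low 5 the 4 Ppp1cb probe sets were all above the rest of the low group, 1431328_at by 1.09 on average, and Ppp1ca was 0.50 below it. How far tissue content or signal strength set these values was not tested.

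**Figure D1:**
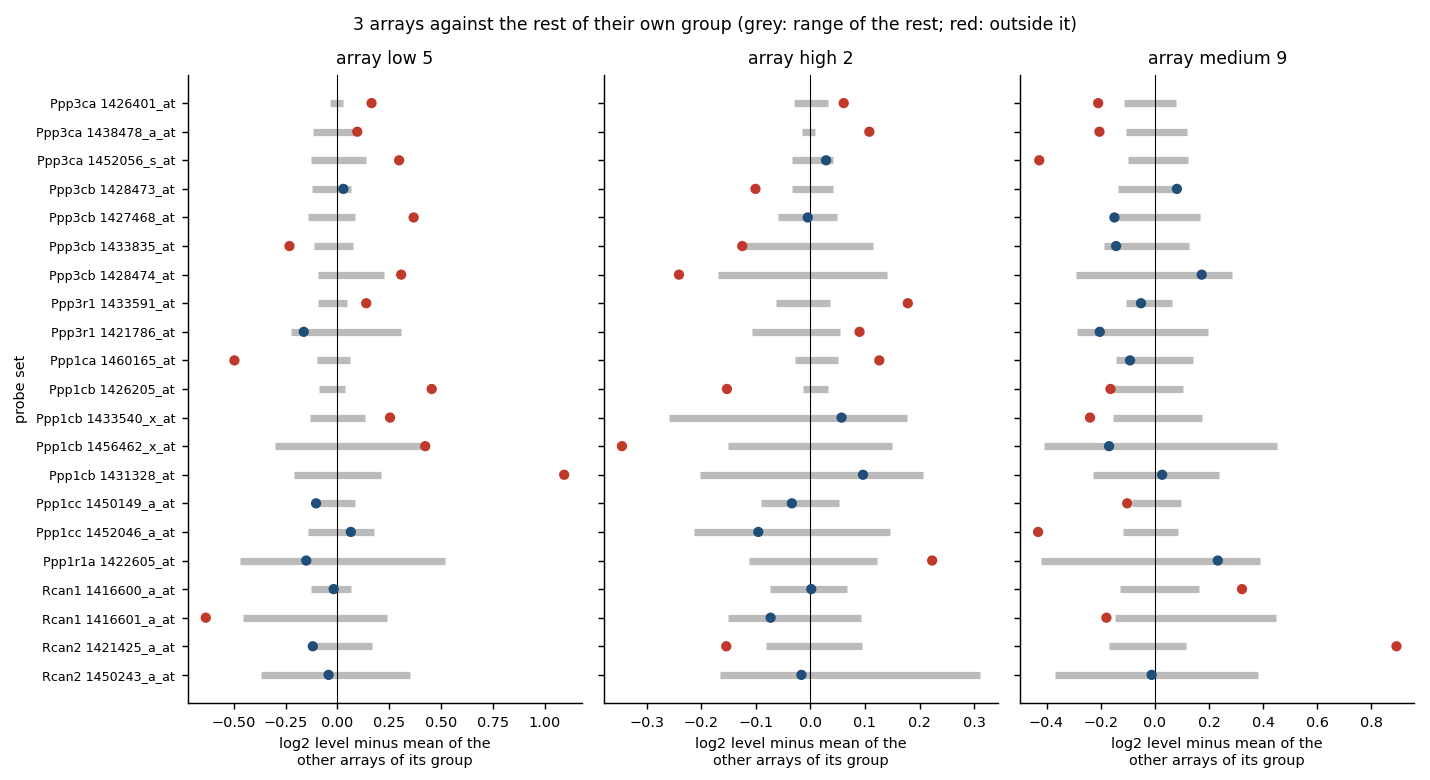
Level of each of the 21 tested probe sets on the arrays low 5, high 2 and medium 9, as the log2 difference from the mean of the other arrays of the same group; grey bars span those other arrays and red points lie outside them. Low 5 lies outside in 13, high 2 in 12 and medium 9 in 10 probe sets, with Ppp1cb 1431328_at on low 5 and Rcan2 1421425_a_at on medium 9 farthest out.

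The first comparison asked whether the phosphatase genes differed between mice at the ends of the cognitive ranking. With limma across all tested probe sets, 0 of 21 member probe sets differed between high and low mice after Benjamini-Hochberg adjustment at 0.05 (smallest adjusted p = 0.595), where 0.00888% of all probe sets passed. At an unadjusted p under 0.05, 2 of 21 passed, against 8.16% of all probe sets. High against medium gave 0 of 21 after adjustment (smallest adjusted p = 0.321, background 0.0311%) and 2 of 21 unadjusted, against a background of 13.2%. Medium against low gave 0 and 0, with backgrounds of 0% and 3.1%. The member counts lay close to what these backgrounds give over 21 probe sets, 1.71, 2.77 and 0.651 at the unadjusted threshold. Without medium 9 the unadjusted counts for these comparisons were 2, 2 and 0, where 10.2%, 13% and 3.4% of all probe sets passed. Without low 5 they were 1, 2 and 1, where 9.49%, 14.8% and 2.82% of all passed. Without high 2 they were 0, 0 and 0, where 7.16%, 11.1% and 3.04% of all passed. After adjustment 0 members passed each time.

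The moderated F test over low, medium and high gave 0 of 21 adjusted (background 0.00888%) and 0 unadjusted (background 8.61%). The slope over classes coded 1, 2 and 3 gave 0 adjusted (background 0.00444%) and 1 unadjusted (background 5.93%). With the inconsistent mice as group 4, 0 passed the adjusted F test (background 0.00444%) and 2 passed unadjusted (background 8.39%). The comparisons share arrays and are not independent of each other.

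The intervals show which sizes the data still allow. Between high and low mice the median absolute difference of the members was 0.054, with 0.073 over all tested probe sets, and 15 of 21 lay within 0.1 of 0, where 64.1% of all did. High against medium gave a median absolute difference of 0.077 (all 0.081) and medium against low 0.032 (all 0.048). The largest absolute member differences were 0.234, 0.258 and 0.175 in these comparisons. The 95% intervals of single members ran as far as -0.50 and 0.38 between high and low mice, so changes of that size in the most variable probe sets are not excluded. The residual SD of the members ran from 0.061 to 0.262, with a median of 0.125 against 0.165 for all tested probe sets. This comparison was not matched for brightness, and 17 of the 21 lie among the 11260 brightest probe sets. Since whole hippocampus was measured, fewer cells expressing a gene and less RNA per cell cannot be told apart in any of these values.

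**Figure D2:**
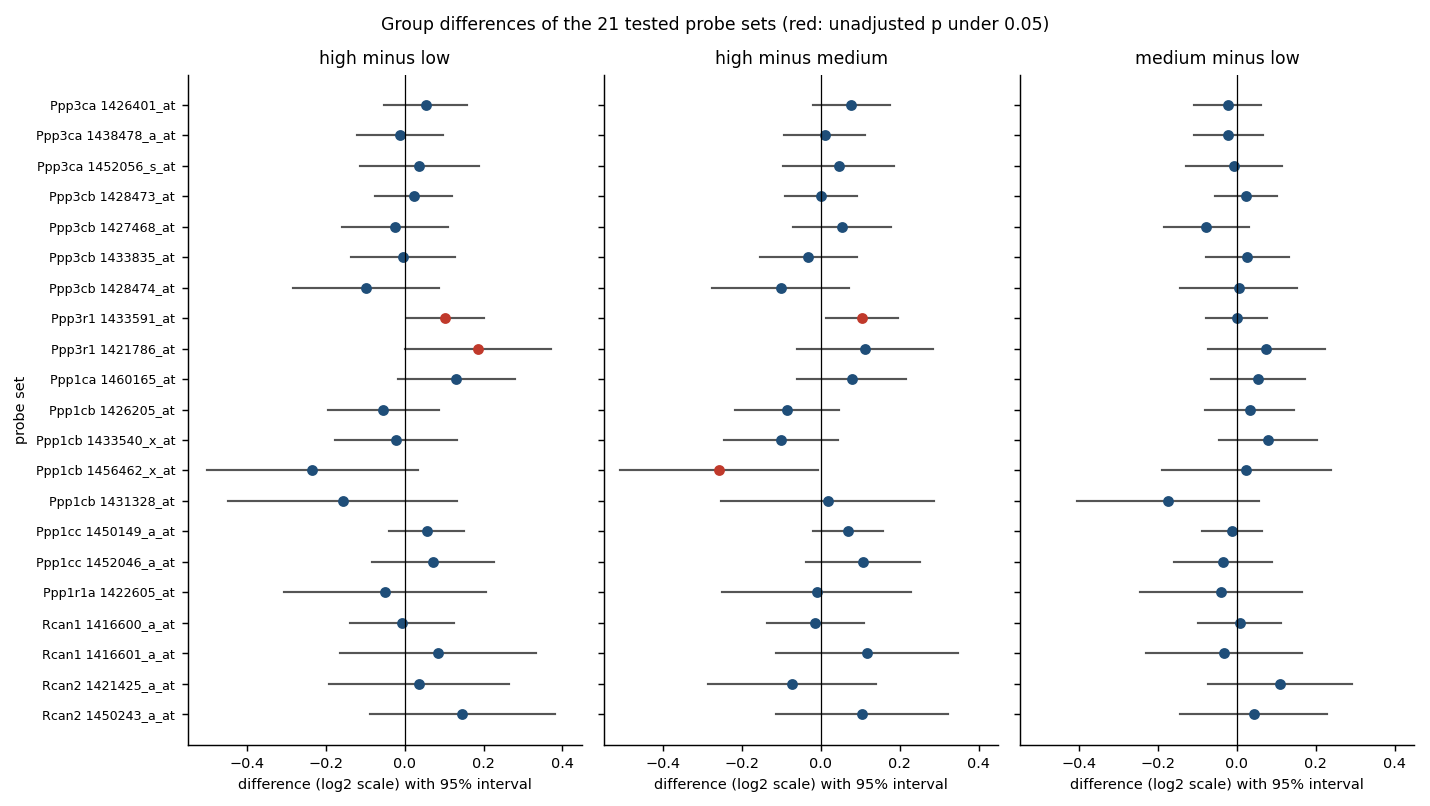
Differences between groups for the 21 tested probe sets on the log2 scale with 95% intervals from limma; red marks an unadjusted p under 0.05. High minus low has 2 red points, high minus medium 2 and medium minus low 0, and none of the members passes after adjustment.

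Ppp3ca and Ppp3cb encode the alpha and beta catalytic subunits of calcineurin. Ppp3ca 1426401_at was at 12.65, 12.74, 12.66, 12.71 and 12.69 in the 5 high mice. Low mice ran from 12.58 to 12.78 with a median of 12.63, medium mice from 12.42 to 12.71 with a median of 12.60, and inconsistent mice from 12.57 to 12.74 with a median of 12.67. The high mean was the highest of the 4 groups by small steps, and each group overlapped the others. The difference of high from low was 0.05 (95% interval -0.05 to 0.16, limma p = 0.305) and of high from medium 0.08 (-0.02 to 0.18, p = 0.118). At the other Ppp3ca probe sets, 1438478_a_at and 1452056_s_at, high differed from low by -0.01 and 0.04.

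Ppp3cb 1428473_at was at 11.96, 11.89, 11.97, 12.03 and 12.00 in high mice. The low median was 11.97 (11.82 to 12.01), the medium median 11.98 (11.83 to 12.05) and the inconsistent median 11.96 (11.80 to 12.02). The 4 medians lay almost on top of each other, and high minus low was 0.02 (-0.08 to 0.12). Its other tested probe sets, 1427468_at, 1433835_at and 1428474_at, differed between high and low by -0.02, -0.01 and -0.10, each with an interval that spans 0.

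Ppp3r1 encodes the calcium-binding regulatory B subunit, without which the catalytic subunit is inactive. It had the smallest unadjusted p-values of the members in both comparisons of the high group. Ppp3r1 1433591_at was at 12.28, 12.52, 12.33, 12.38 and 12.38 in high mice. Low mice ran from 12.16 to 12.39 (median 12.27), medium mice from 12.17 to 12.34 (median 12.28) and inconsistent mice from 12.11 to 12.47 (median 12.26). All 5 high mice lay above the low mean and above the medium mean, with 3 of 5 above every medium mouse and 1 of 5, high 2, above every low mouse. High exceeded low by 0.10 (95% interval 0.01 to 0.20, limma p = 0.039, adjusted p = 0.595) and medium by 0.10 (0.01 to 0.19, p = 0.027, adjusted p = 0.321), about 1.07-fold.

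The two-sided exact permutation tests of this probe set gave unadjusted p = 0.0319 for high against low and 0.00485 for high against medium, among 63 such tests of members. Without high 2 the differences were 0.07 (limma p = 0.175) and 0.07 (p = 0.147). Without low 5, the highest low mouse here, high minus low was 0.12 (limma p = 0.014, adjusted p = 0.437). Without both of these arrays it was 0.08 (p = 0.0741). Without normalization between arrays high minus medium was 0.001 (p = 0.995), on a scale where the median of all probe sets moved by -0.17. Among the spike-in batches described with the processing, the largest held 4 high, 5 low and 5 medium mice and gave 0.13 against both groups. The batch with 1 high mouse gave 0.00 against low and -0.01 against medium, and with the batch as a block in the fit the differences were 0.10 (p = 0.0553) and 0.10 (p = 0.0533). With arrays centred on their medians in place of quantile normalization they were larger, 0.19 (p = 0.0039) and 0.18 (p = 0.00276), and neither passed after adjustment.

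The dimmer Ppp3r1 1421786_at was at 7.56, 7.63, 7.60, 7.57 and 7.43 in high mice. Low mice ran from 7.17 to 7.70 (median 7.30), medium mice from 7.17 to 7.66 (median 7.45) and inconsistent mice from 7.28 to 7.88 (median 7.59). The 3 ranked groups stood in the order of their ranking on this scale, with the high values inside the upper part of the low range, and the inconsistent mean of 7.57 was as high as the high mean of 7.56. High exceeded low by 0.19 (95% interval 0.00 to 0.37, limma p = 0.0498, adjusted p = 0.612), the slope had p = 0.0482 (adjusted p = 0.837), and the F test with the inconsistent group had p = 0.0463. High minus medium was 0.11 (p = 0.197). The two-sided exact permutation test of high against low gave unadjusted p = 0.0987. Leaving out 1 array at a time moved the limma p for high against low between 0.0115 and 0.101, and it stayed under 0.05 in 8 of 25 such fits. Without normalization between arrays high exceeded low by 0.10 (limma p = 0.604) and lay below medium, at -0.08 (limma p = 0.646). The order of high and medium thus turned, on a scale where the medians of all probe sets moved by -0.06 and -0.17. Across mice within groups this probe set followed 1433591_at only weakly, with r = 0.262 over 39 arrays.

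**Figure D3:**
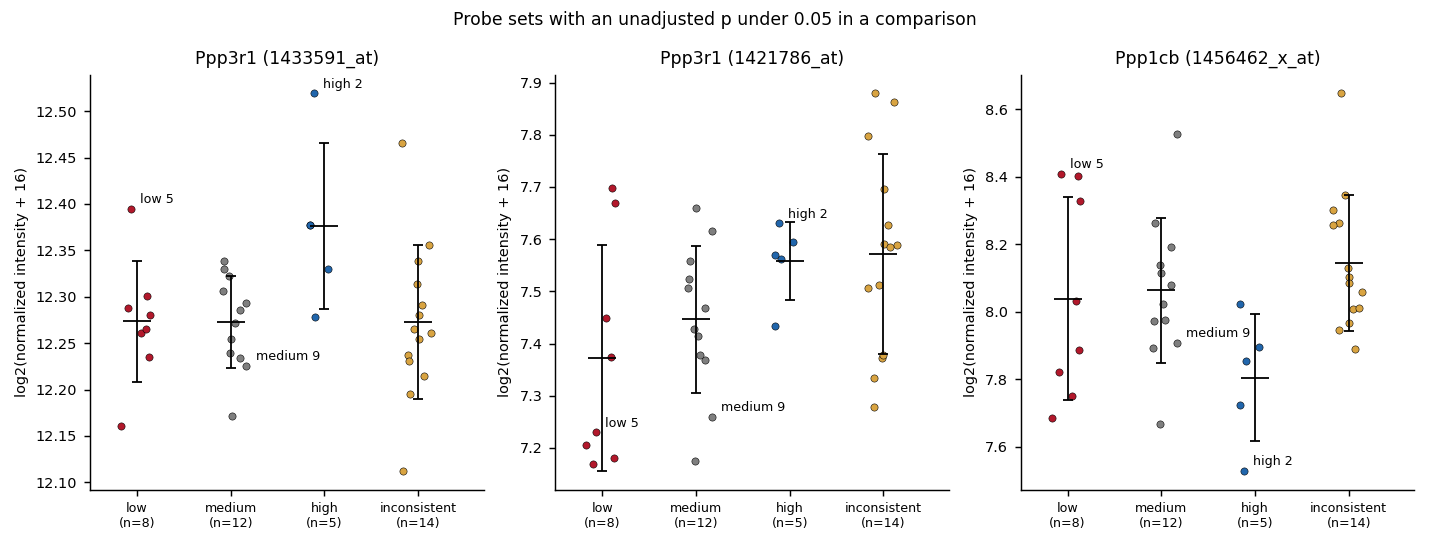
Levels per mouse of Ppp3r1 1433591_at, Ppp3r1 1421786_at and Ppp1cb 1456462_x_at on the log2(normalized intensity + 16) scale, with group mean and SD; low 5, high 2 and medium 9 are named. High 2 is the highest high mouse at Ppp3r1 1433591_at (12.52) and the lowest at Ppp1cb 1456462_x_at (7.53), and the groups overlap in each panel.

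Rcan1 and Rcan2 encode regulators of calcineurin that inhibit it when abundant, and Rcan1 is itself induced by calcineurin signalling. Rcan1 1416600_a_at was at 8.94, 8.88, 8.87, 8.89 and 8.80 in high mice, 8.76 to 8.95 in low mice (median 8.89), 8.74 to 9.19 in medium mice (median 8.88) and 8.61 to 9.08 in inconsistent mice (median 8.84). The group means lay between 8.86 and 8.89, and high minus low was -0.01 (95% interval -0.14 to 0.12). The spread was wider in the medium (SD 0.136) and inconsistent (SD 0.137) groups than in the low (SD 0.0597) and high (SD 0.050) groups, a difference in spread that was not tested. Rcan1 1416601_a_at gave 0.08 (-0.16 to 0.33) for high minus low, and 0.00 without low 5.

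Rcan2 1421425_a_at was at 10.67, 10.54, 10.78, 10.70 and 10.61 in high mice, 10.51 to 10.81 in low mice (median 10.62), 10.49 to 11.55 in medium mice (median 10.68) and 10.45 to 10.76 in inconsistent mice (median 10.64). The groups coincided apart from medium 9. Medium minus low was 0.11 (95% interval -0.07 to 0.29) with that array and 0.03 without it, and high minus medium went from -0.07 to 0.00. Rcan2 1450243_a_at differed between high and low by 0.15 (-0.09 to 0.38), and by 0.07 without high 3.

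Ppp1ca, Ppp1cb and Ppp1cc encode the alpha, beta and gamma catalytic subunits of protein phosphatase 1, which associate with different targeting proteins. Ppp1ca 1460165_at, its only probe set, was at 10.87, 11.02, 10.90, 10.95 and 10.87 in high mice. Low mice ran from 10.36 to 10.91 (median 10.85), medium mice from 10.71 to 10.99 (median 10.85) and inconsistent mice from 10.75 to 11.04 (median 10.87). The lowest value belonged to low 5, and the rest of the low group began at 10.76. High exceeded low by 0.13 (95% interval -0.02 to 0.28, limma p = 0.0826), or by 0.07 (p = 0.195) without low 5.

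Ppp1cb 1426205_at was at 11.61, 11.47, 11.66, 11.61 and 11.62 in high mice, with low mice from 11.50 to 12.05 (median 11.62), medium mice from 11.53 to 11.80 (median 11.69) and inconsistent mice from 11.53 to 11.74 (median 11.64). The high and low medians nearly coincided, and the top of the low range was low 5 alone. High minus low was -0.05 (95% interval -0.19 to 0.09), and 0.03 without low 5 and high 2.

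The dimmer Ppp1cb 1456462_x_at had the largest differences of any member in both comparisons of the high group. It was at 7.85, 7.53, 7.89, 8.02 and 7.72 in high mice, 7.69 to 8.41 in low mice (median 7.96), 7.67 to 8.53 in medium mice (median 8.05) and 7.89 to 8.65 in inconsistent mice (median 8.09). All 5 high mice lay below the low mean and below the medium mean, within or next to the lower part of those groups. High minus medium was -0.26 (95% interval -0.51 to -0.01, limma p = 0.0436, adjusted p = 0.364), 0.836-fold, and high minus low was -0.23 (-0.50 to 0.03, p = 0.084). The difference from low was -0.18 (limma p = 0.17) without low 5, and -0.11 (p = 0.413) without low 5 and high 2. The exact permutation tests gave unadjusted p = 0.0339 for high against medium and 0.155 for high against low, and the F test with the inconsistent group had p = 0.0451.

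Without high 2 the difference from medium was -0.19 (p = 0.158). In the largest spike-in batch it was -0.38, in the batch with 1 high mouse -0.15, and with the batch as a block -0.34 (p = 0.0105). Without normalization it was -0.44 (limma p = 0.0158), on a scale where the median of all probe sets moved by -0.17. The remaining Ppp1cb probe sets gave -0.09, -0.10 and 0.02 for high minus medium, none with an unadjusted p under 0.05. The suffix of 1456462_x_at marks a probe set that may share probes with other sequences, so its assignment to Ppp1cb is uncertain.

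Ppp1cc 1450149_a_at was at 12.00, 11.93, 11.96, 11.87 and 12.01 in high mice, 11.79 to 11.99 in low mice (median 11.91), 11.79 to 11.99 in medium mice (median 11.88) and 11.84 to 11.98 in inconsistent mice (median 11.91). High mice had the highest mean, and 4 of 5 lay above the low mean. High exceeded low by 0.06 (95% interval -0.04 to 0.15) and medium by 0.07 (-0.02 to 0.16, limma p = 0.119). The two-sided exact permutation tests of this probe set gave unadjusted p = 0.155 for high against low and 0.0368 for high against medium. They are among the member tests of that kind counted above. At Ppp1cc 1452046_a_at high exceeded medium by 0.11, and by 0.07 without medium 9.

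Ppp1r1a encodes inhibitor 1, which blocks protein phosphatase 1 once protein kinase A has phosphorylated it and is dephosphorylated by calcineurin. Its probe set 1422605_at was at 8.97, 9.24, 9.06, 9.14 and 8.91 in high mice. Low mice ran from 8.66 to 9.65 (median 9.15), medium mice from 8.64 to 9.44 (median 9.06) and inconsistent mice from 8.92 to 9.53 (median 9.30). The low mice alone covered almost the whole range seen, so differences between individual mice were larger than those between groups. High minus low was -0.05 (95% interval -0.31 to 0.21) and high minus medium -0.01 (-0.25 to 0.23).

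**Figure D4:**
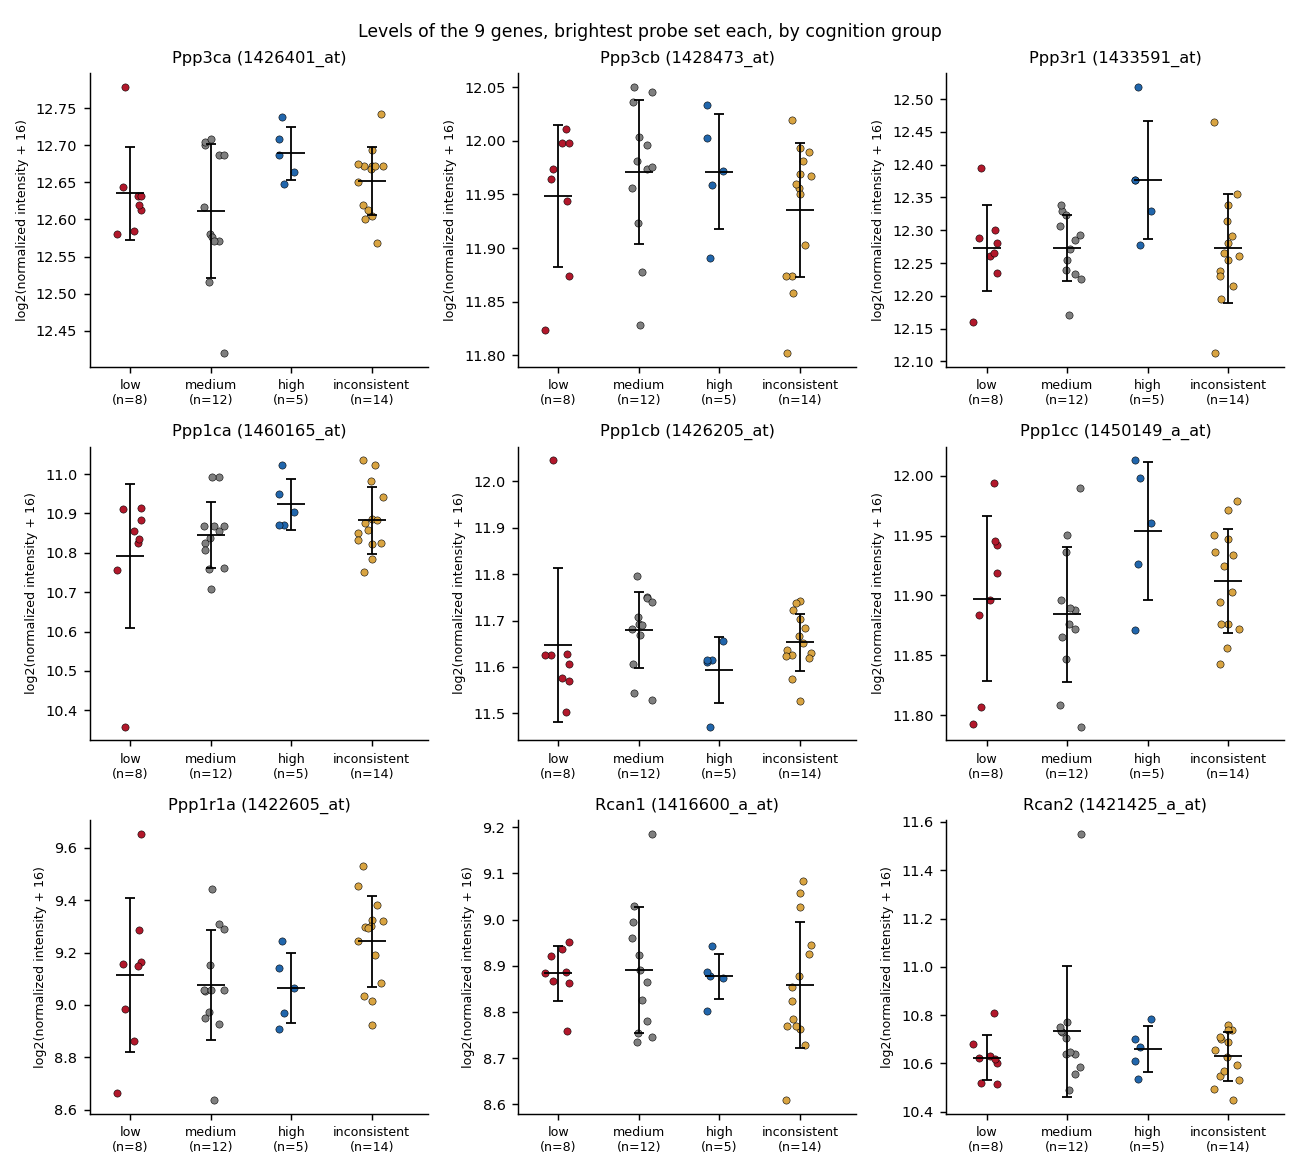
Levels of the 9 genes at their brightest probe sets in low (8), medium (12), high (5) and inconsistent (14) mice on the log2(normalized intensity + 16) scale; each point is a mouse and bars give group mean and SD. The groups overlap in each panel, with low 5 far out for Ppp1ca (10.36) and Ppp1cb (12.05) and medium 9 far out for Rcan2 (11.55).

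The genes around the 2 phosphatases were read from lists at the brightest tested probe set of each gene. Of 17 partners and substrates of calcineurin, 10 were tested, and 0 passed the adjusted limma test in any pairwise comparison. Between high and low mice 1 passed unadjusted, where the background of 8.16% gives 0.816 of 10, and 9 of 10 were below 0 with a median of -0.06. The call was Ppp3cc, the gamma catalytic subunit, at -0.22 (limma p = 0.0400, adjusted p = 0.598), with mean levels of 6.24 in high and 6.47 in low mice. It was lost without low 5 (-0.20, p = 0.0698). Between high and medium mice 0 passed unadjusted, and all 10 differences were below 0 with a median of -0.10. Over all tested probe sets the median was 0.01, with 51.9% above 0. The 10 were also all below 0 with arrays centred on their medians, and 9 of 10 were below 0 without medium 9. Without normalization all 10 were below 0 too, and 2 passed unadjusted, where 7.67% of all probe sets passed. But there the median of all probe sets moved by -0.17. On that scale 22 of 25 partners of protein phosphatase 1 were also below 0. With quantile normalization, the smallest limma p for high against medium was that of the transcription factor gene Nfatc3 (-0.17, p = 0.0548). It was followed by the synaptic vesicle gene Dnm1 (-0.14, p = 0.0703) and Fkbp1a (-0.09, p = 0.128), whose protein carries the drug tacrolimus to calcineurin. Between medium and low mice 0 passed unadjusted and 8 of 10 were above 0 with a median of 0.05, and the smallest p were those of Ppp3cc (-0.14), Nfatc2 (0.16) and Nfatc1 (-0.10), and between high and low mice Nfatc1 was at -0.14 and Nfatc3 at -0.14.

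Of 27 regulatory and targeting partners of protein phosphatase 1, 25 were tested and 0 passed after adjustment. Between high and low mice 2 passed unadjusted, where the background gives 2.04 of 25: Ppp1r16b, which encodes a membrane-associated targeting subunit, differed by -0.23 (p = 0.0116, adjusted p = 0.544), and the nuclear targeting subunit gene Ppp1r10 by 0.25 (p = 0.0264, and 0.0507 without low 5). Ppp1r12b followed at 0.16 (p = 0.0660). Between high and medium mice 4 passed unadjusted, where the background of 13.2% gives 3.3 of 25. They were led by Ppp1r16b (-0.22, p = 0.00870, adjusted p = 0.230), the inhibitor gene Ppp1r11 (0.25, p = 0.00967) and Ppp1r10 (0.25, p = 0.0196). The list was balanced in sign, with 14 of 25 above 0 between high and low mice and 13 of 25 between high and medium mice. With arrays centred on their medians 18 of 25 were above 0 in the former. Without normalization 3 of 25 were above 0 in the latter, where the median of all probe sets moved by -0.17. Between medium and low mice 1 passed unadjusted, Ppp1r16a (0.16, p = 0.0405), where the background gives 0.775 of 25. Without low 5 it was at 0.08 (p = 0.144) and without medium 9 at 0.14 (p = 0.0674). It was followed by Ppp1r12c (0.12) and Ppp1r7 (-0.07).

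Of 9 genes of other phosphoprotein phosphatases, 7 were tested and 0 passed after adjustment. Unadjusted, 2 passed between high and low, 1 between high and medium and 1 between medium and low, where the backgrounds give 0.571, 0.924 and 0.217 of 7. Ppp2cb, a catalytic subunit of protein phosphatase 2A, was at 0.15 in high against low (unadjusted p = 0.0312) and at 0.13 in high against medium (unadjusted p = 0.0433). Ppp4c was at 0.22 in high against low (unadjusted p = 0.0328). These 3 calls were lost without high 2, at 0.13 (p = 0.0802), 0.11 (p = 0.112) and 0.20 (p = 0.0741), and without low 5 Ppp4c was at 0.17 (p = 0.0767). Without normalization between arrays all 7 genes were below 0 for high against medium, where the median of all probe sets moved by -0.17. Ppp2r1b was at 0.12 and 0.14 in these comparisons. Ppp6c was at -0.08 in medium against low (unadjusted p = 0.0468, and 0.0746 without medium 9) and at 0.09 in high against medium (p = 0.0569), and between medium and low Ppp4c was at 0.12 and Ppp2ca at 0.03. Over the 3 lists together, 0 of 42 tested genes passed after adjustment in any pairwise comparison, and 5 passed unadjusted between high and low, 5 between high and medium and 2 between medium and low, where the backgrounds of 8.16%, 13.2% and 3.1% give 3.43, 5.54 and 1.3 of 42.

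Markers of other tissue and cell types were read in the same way, and 0 of them passed after adjustment. The mean of 8 choroid plexus markers ran from 6.17 to 6.81 in high mice, from 6.03 to 9.90 in low mice and from 6.30 to 9.81 in medium mice, so no high sample was bright in choroid plexus genes. The mean of 8 hippocampal excitatory markers ran from 9.08 to 9.21 in high mice from 8.85 to 9.48 in low mice and from 7.74 to 9.32 in medium mice. Between high and medium mice 6 of 7 striatal markers were below 0 (median -0.17). Of these markers 3 of 7 passed unadjusted, all downward, where the background of 13.2% gives 0.924 of 7. Neocortical markers were below 0 in 5 of 6 (median -0.16), with 0 passing unadjusted. Without medium 9 the striatal count was 5 of 7 below 0 (median -0.14, again 3 calls, where 13% of all probe sets passed). The neocortical count was 4 of 6 (median -0.01). All 5 oligodendrocyte markers were below 0 for high against medium (median -0.06, 0 calls) and all 5 microglial markers above 0 (median 0.03, 0 calls). Of 5 interneuron markers, 1 was higher and 2 were lower for high against medium at an unadjusted p under 0.05, where the background gives 0.66 of 5. Without normalization the 5 microglial markers were below 0 for high against medium, where the median of all probe sets moved by -0.17. The part of these tissues in the values above was not tested for each gene. Without the choroid-bright arrays 0 of 21 member probe sets passed after adjustment in any comparison. The count was already 0 with all arrays, so it cannot show whether tissue content mattered. The median member difference for high against low was 0.0009 without those arrays and 0.023 with all arrays.

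How the genes varied together was read from levels with the group mean removed, over the 39 arrays of 4 groups and the 36 pairs of the 9 genes. Rcan1 and Rcan2 had the highest correlation, with Pearson r = 0.601 (permutation p = 6e-05, adjusted over the 36 pairs 0.00216) and Spearman rho = 0.496 (adjusted p = 0.0278). Medium 9 was far out in this pair, and r was 0.469 without it and 0.413 without medium 9 and inconsistent 13, the arrays farthest from the Rcan1 median. Within spike-in batches r was 0.817 over 10 arrays, which include medium 9, and 0.347 over 23, where the pair did not pass over the 36 pairs (adjusted p = 0.35). Without medium 9 it passed (adjusted p = 0.0441). The third batch held 6 of these arrays, too few for a value.

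Ppp3ca and Ppp3r1, which encode the catalytic and the regulatory subunit of calcineurin, had r = 0.475 (permutation p = 0.00248, adjusted 0.0446) and rho = 0.534 (adjusted p = 0.0223). Here r was 0.410 without medium 9 and low 5, and 0.481 and 0.620 within the 2 larger batches. The pair was lost without low 5 (r = 0.404, adjusted p = 0.0903). These were the 2 of 36 pairs that passed by Pearson r, and 6 of 36 passed by Spearman rho. Ppp3cb was positively related by rank to Rcan1 (rho 0.466) and Rcan2 (rho 0.424), Ppp1ca to Ppp1r1a (rho 0.453), and Ppp1cb negatively to Rcan1 (rho -0.473), each with an adjusted rank p under 0.05. Ppp1ca and Ppp1cb had r = -0.520 with all arrays and 0.006 without low 5, so that relation rests on 1 array. Signs were mixed, with 14 of 36 pairs above 0. On values without normalization between arrays all 36 pairs passed, where overall brightness is shared by every gene.

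**Figure D5:**
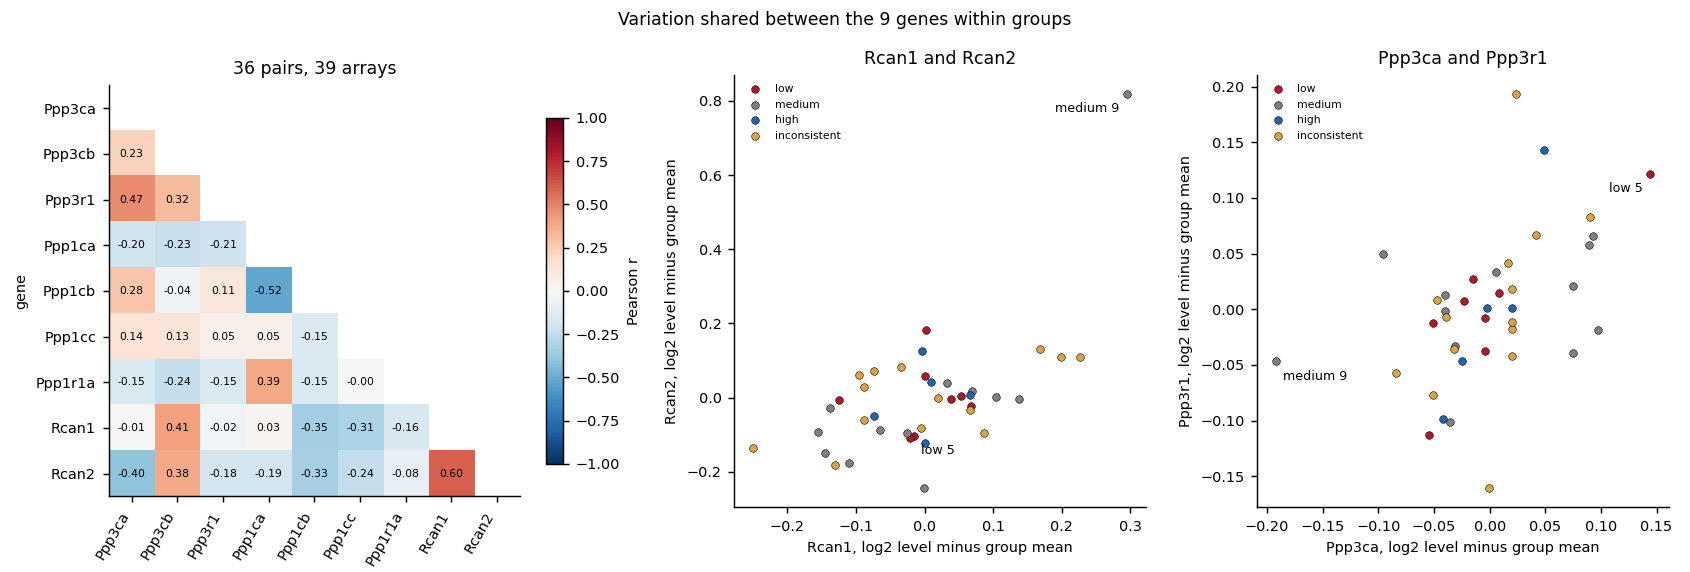
Pearson r of the 36 pairs of genes at their brightest probe sets after removal of group means (left), and the levels behind the pairs Rcan1 and Rcan2 (middle) and Ppp3ca and Ppp3r1 (right), 1 point per mouse over 39 arrays. Medium 9 lies far from the other mice in the middle panel, where r is 0.601 with it and 0.469 without it.

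Probe sets of the same gene agreed only in part. Over 19 such pairs the median r was 0.345, from -0.04 to 0.797, and 9 of 19 passed after adjustment over these pairs. Ppp3ca 1426401_at and 1452056_s_at were closest (r = 0.797, 0.602 without medium 9 and low 5). The 2 Rcan1 probe sets had r = 0.093 and the 2 Rcan2 probe sets r = 0.064, so the relation of Rcan1 and Rcan2 is one of their brighter probe sets.

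The genes most like each member in their pattern over mice were looked up next. Among 11218 genes at their brightest probe sets, ranked by r over the same 39 arrays as a description, Rcan2 was most like Cdh22 (r = 0.871, 0.582 without medium 9) and Gfra2 (0.857, 0.586 without medium 9). Rcan1 was most like Cyhr1 (0.772) and Ets2 (0.767), Ppp3ca like Nhsl1 (0.817) and Mef2a (0.735), and Ppp3cb like Wee1 (0.739) and Celf4 (0.700). Ppp3r1 was most like Naa15 (0.736) and Scrn3 (0.728), Ppp1cc like Rapgef2 (0.708) and Nexmif (0.639), and Ppp1r1a like Gng13 (0.797) and Uqcc2 (0.777). Ppp1ca was most like Prelid1 (0.850, 0.718 without low 5) and Ccdc106 (0.809, 0.668 without low 5), and Ppp1cb like Dzip3 (0.697, 0.547 without low 5) and Aasdhppt (0.697, 0.511 without low 5). In the values given here without medium 9 or low 5, the array was dropped after group means that included it had been removed. The means were not taken again, unlike for the pairs of members above. Part of that array's effect therefore stays in these values, and they cannot be compared with those of the pairs. All of these arrays share normalization and tissue content.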

How the data were processed

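The authors' deposited table holds linear probe set intensities, from 0.01117 to 13549, for 45101 probe sets on 41 arrays; per the submitters' processing notes, Partek and RMA were used, but how these values were made from the scans is not stated there. Quantile normalization across the 41 arrays was followed by log2(intensity + 16), so differences of dim genes are understated. After removal of 64 control probe sets, the 22519 of 45037 at or above the median of mean levels were tested with limma 3.58.1 in R 4.3.3 (1 mean per group, moderated statistics, two-sided), with Benjamini-Hochberg adjustment over all of them. The 25 low, medium and high arrays entered 1 fit, and a fit of 39 added the inconsistent group. Permutation tests used 100000 resamples in Python 3.11.15, or all regroupings where called exact. Precision is limited by the number of arrays. On simulated data with the spread of these arrays, the fit for high against low called 11 of 50 probe sets changed by 0.25 (log2). It called 43 of 50 changed by 0.5 and 49 of 50 changed by 1, with 4 false calls among 22519 probe sets. The simulated data held 50 changed probe sets at each of 0.25, 0.5, 1 and 1.5 together, with noise drawn independently for each probe set. Many true changes at once ease the adjustment, so these counts can overstate recovery where only a few members change. Recovery of a few changes alone was not simulated. Recovery among arrays that stand apart, such as medium 9 or low 5, or that differ in tissue content or batch, was not tested.

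The labels name no batch. Clustering of 45 spike-in control probe sets gave 3 groups of 7, 10 and 24 arrays, an estimate made from the values that depends on the clustering method. Symbols came from the platform annotation, and all 9 genes matched RefSeq. The members, gene lists and tests were chosen with earlier results of these data known. Named were all member probe sets, and up to 3 genes of each partner list with the smallest unadjusted p per comparison. Ppp1r1b, the remaining unadjusted call of its list, and the 2 most similar genes of each member were also named. Alternatives were the filter, normalization, offset, variance model, array weights, choice of arrays, batch, replicate number and leaving out each array.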

Additional observations from a re-analysis of the deposited data

Results flagged for a closer look

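Among 42 tests for a lone extreme value, covering 21 probe sets in the low and high groups, 8 gave one, where chance alone flags about 5% of groups. Array low 5 was the highest of its group at Ppp1cb 1426205_at (12.05, next 11.63), Ppp1cb 1431328_at (7.975, next 7.091), Ppp3ca 1426401_at (12.78, next 12.64) and Ppp3cb 1427468_at (11.01, next 10.72), and the lowest at Ppp1ca 1460165_at (10.36, next 10.76). Array high 2 was the lowest of its group at Ppp1cb 1426205_at (11.47, next 11.61) and the highest at Ppp3ca 1438478_a_at (11.91, next 11.81). Array low 8 was the lowest at Rcan1 1416600_a_at (8.759, next 8.863).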

How the results depend on the processing

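In each of the 6 comparisons, 0 member probe sets passed after adjustment under every alternative run for it, the leave-one-out fits included (range 0 to 0). All 21 entered these fits except with a filter kept to 11260 bright probe sets (17 entered) and 1 probe set per gene (9 entered), and the fit of the compared groups alone was run for the 3 pairwise comparisons, the fit of all 41 arrays for 5. The smallest adjusted p of a member over these alternatives was 0.196, for high against medium with array weights, where 354 of all probe sets passed in place of 7. At an unadjusted p under 0.05, the member counts ran from 0 to 3 for high against low and from 0 to 4 for high against medium; the highest counts came with arrays centred on their medians, where 7.59% and 10% of all probe sets passed. The counts fell to 0 in both without high 2, where 7.16% and 11.1% of all probe sets passed. They were also 0 without low 5 and high 2 together, a choice made after seeing the data, where 8.65% and 12.7% of all passed. Signs of member differences turned in 14 of 63 with arrays centred on their medians, all with absolute values up to 0.054, and in 22 of 63 without normalization, up to 0.117. Without normalization the median of all probe sets moved to -0.06 for high against low, -0.17 for high against medium and 0.11 for medium against low.

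Replicate numbers did not pair mice: same-numbered deviations correlated between -0.171 and 0.141 over 18 pairs, with 1 over 0.1. With the replicate block, 0 members passed after adjustment. Unadjusted, 1 passed for high against low and 1 for high against medium, where 9.33% and 13.6% of all probe sets passed. Of the 36 pairs of genes, Rcan1 with Rcan2 and Ppp3ca with Ppp3r1 passed by Pearson r. Without low 5, 2 passed, with Ppp1cb and Rcan1 in place of Ppp3ca and Ppp3r1. Within the spike-in batch of 24, 2 passed, with Ppp1ca and Ppp1cb in place of Rcan1 and Rcan2. Without medium 9, 3 passed, the original pairs and Ppp1ca with Ppp1cb; leaving out low 5 or medium 9 here was chosen after seeing the data. All 36 passed without normalization, and 0 passed within the spike-in batch of 10, where fewer arrays entered.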
